A study of Mus musculus with 15 samples.

Results

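Day 4 of chemical induction was compared with the astrocytes that served as its starting point, across all genes that were measurably expressed in either. Astrocytes, labelled D0, were set against cells labelled as chemically induced neurons on day 4, labelled D4, with 3 RNA libraries in each group. All libraries came from brain cells of the C57BL/6 mouse strain and were sequenced as paired 150-base reads. The series also holds days 8 and 16 (D8, D16) and primary neurons (PN), 3 libraries each, which enter here through the shared estimate of the spread and as levels set beside D4. The labels name neither the compounds nor the age of the animals, and they do not say whether the libraries of a group came from separate cultures, so p-values measure the spread between these libraries, which may be technical. A gene was a member when it reached 1 FPKM (fragments scaled to transcript length and to the library's mapped fragments) in 3 or more of the 6 D0 and D4 libraries, which held for 13115 of 24346 genes in the deposited table. The members nearest the limit were Htr7, whose third-highest value was 1 FPKM, and 4930451G09Rik, at 1.00243 FPKM. Just outside stood Pkp1 at 0.9992 FPKM and Col20a1 at 0.999036 FPKM. Because the filter counts libraries of either group, 708 members reached 1 FPKM in the D4 libraries alone and 320 in the D0 libraries alone, and genes that passed in this way had to differ between the groups.

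Astrocytes are the glial cells that clear transmitter, buffer potassium and support synapses, and in culture they also divide, carry stress fibres and lay down matrix. Neurons instead leave the cell cycle, fill synaptic vesicles and dense-core granules, and express channels, RNA-binding proteins and transcription factors that glia keep low. A change from one to the other can therefore be followed from both sides, as loss of glial, contractile and mitotic transcripts and as gain of neuronal ones.

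FPKM totals of the 6 libraries ran from 603944 to 720956 and 12072 to 12907 genes reached 1 FPKM per library. Read totals were not used here, but the steps between low FPKM values put the relative depth at 0.707 to 1.63 times that of D0 replicate 1, with replicate 2 deepest in both groups (1.44 at D0, 1.63 at D4). Libraries of one group correlated at 0.971 to 0.985 over the member genes, and D0 with D4 libraries at 0.781 to 0.833 (Pearson, log2 of FPKM + 1, across genes, which are not independent replicates). The median gene had a standard deviation of 0.21 among D0 libraries and 0.19 among D4 libraries on that log2 scale. D0 replicate 2 held the lowest of the D0 values for 1052 of the 1834 genes that rose.

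Between the astrocytes and day 4, 1834 genes rose and 1971 fell, 14.0% and 15% of the 13115 tested (29.0% together). A gene is called here, and said to have risen or fallen, at an adjusted p below 0.05 (limma, Benjamini-Hochberg over all members) and a change of at least 1 on the log2(FPKM + 1) scale. The added 1 shrinks the changes of weakly expressed genes. For genes that passed the filter through 1 group alone the difference was part of the selection, so their adjusted p is no support. All changes below are given on this log2 scale, and ± marks the standard error. The median change over all tested genes was -0.04. A change of at least 3 was seen in 174 of the genes that rose and 168 of those that fell, and of at least 5 in 20 and 15. The 3 D4 values lay all above or all below the 3 D0 values in 3771 of the 3805 called genes, and in 8278 (63.1%) of all tested, with D4 higher in 29.9% and lower in 33.2%. In bulk RNA, fewer cells of a type and less RNA per cell cannot be told apart, and this holds for each fall described below.

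**Figure D1:**
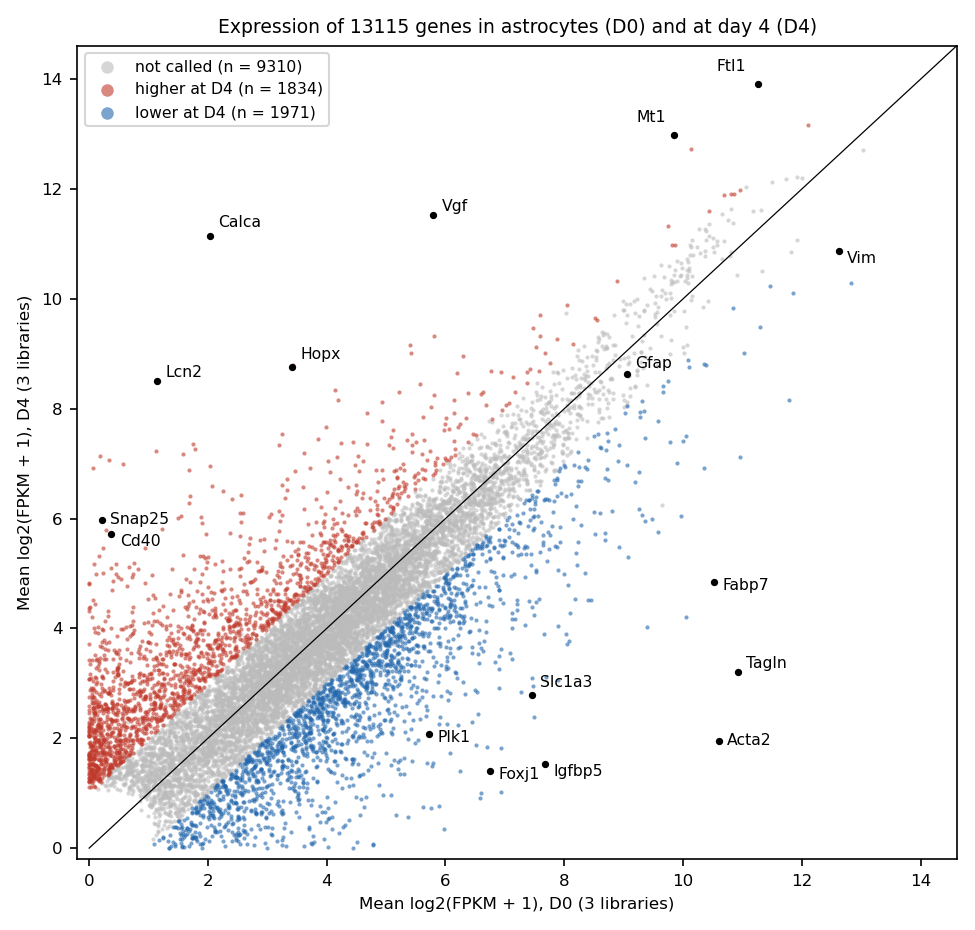
Mean log2(FPKM + 1) of each of 13115 genes over the 3 D0 libraries (horizontal) and the 3 D4 libraries (vertical), with called genes in colour, the line of equality and 17 genes marked. Calca, Vgf and Lcn2 stand far above the line, Acta2 and Tagln far below it, and Gfap close to it.

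The D0 libraries carried the astrocyte markers. Gfap, the astrocyte intermediate filament, stood at 465, 383 and 832 FPKM, and Slc1a3, the glutamate transporter of astrocytes, at 200.1, 99.9 and 266 FPKM in replicates 1, 2 and 3 (values are given in this order throughout). Summed over 8 astrocyte markers the D0 libraries held 688 to 1563 FPKM and the D4 libraries 445 to 521 FPKM, with 6 of 8 markers called lower. Most of the D4 sum was Gfap, at 417, 349.8 and 429 FPKM, which was not called (log2 change -0.41 ± 0.62, adjusted p = 0.6) and whose D0 and D4 values overlapped. Slc1a3 was left at 3.72, 9.82 and 5.44 FPKM (log2 change -4.67 ± 0.39, adjusted p = 1.9e-07).

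Of 8 neuronal markers, Dcx and Elavl4 did not pass the filter, and the D4 label of induced neurons held for some markers and not for others. Their sums overlapped, at 271.1 to 384.5 FPKM at D0 and 346.4 to 415.3 FPKM at D4, and Stmn2 made up most of the D0 sum. Of 6 tested, 4 were called higher and 1 lower, and Map2 was not called. Snap25, a vesicle fusion protein, Tubb3, Syt1 and Rbfox3 were called higher. Tubb3, the neuronal tubulin, went from 8.03, 6.62 and 32.6 to 92.2, 138 and 137 FPKM (log2 change 3.20 ± 0.39, adjusted p = 7.5e-06). Rbfox3, the NeuN antigen, reached only 2.27, 1.77 and 1.32 FPKM, against a PN mean of 50.1 FPKM, and its call was lost under quantile normalization. Stmn2 was lower (249, 346 and 318 to 132, 139 and 177 FPKM, log2 change -1.02 ± 0.20, adjusted p = 4.8e-04), a call lost under 6 of 17 alternatives including the omission of D0 replicate 2, D0 replicate 3, D4 replicate 1 or D4 replicate 2. The microtubule protein Dcx, a marker of young neurons, was at 0.112, 0.129 and 0.169 FPKM in the D4 libraries.

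Markers of other brain cells were also read in the D0 libraries. The 8 mural (smooth muscle and pericyte) markers summed to 766, 3779 and 1367 FPKM at D0 and to 17.1 to 22.2 FPKM at D4. Nearly all of the D0 sum was Acta2. Of the 8, 6 were tested, 3 fell (Acta2, Pdgfrb and Cspg4), 0 rose and 3 were not called (Rgs5, Notch3 and Myh11), and Kcnj8 and Abcc9 did not pass the filter. Ependymal markers summed to 135 to 318 FPKM at D0 and 15.6 to 29.0 FPKM at D4, with 5 of 7 tested lower and 1 higher, led by the ciliogenesis factor Foxj1 (69, 151 and 118 to 1.11, 2.65 and 1.43 FPKM, log2 change -5.35 ± 0.39, adjusted p = 4.5e-08). Fibroblast and meningeal markers summed to 100.4 to 288 FPKM at D0, mostly Col1a1 and Col1a2, with Lum and Slc6a13 at 0 in all D0 libraries, and to 22.7 to 30.7 FPKM at D4. Of 4 tested, 2 were called lower and 1 higher. Oligodendrocyte precursor markers summed to 242 to 395 FPKM at D0, of which Olig1 and Olig2 made up most, and to 34.3 to 92.6 FPKM at D4, with 4 of 5 tested lower and 1 higher. Sox10, which defines that lineage, was at 0.214, 0.123 and 0.0435 FPKM at D0 and 0.149, 0.153 and 0.250 FPKM at D4. Pdgfra, a member of both the precursor and the fibroblast list, lost its call under 5 of 17 alternatives. Microglia markers summed to 1.72 to 25.6 FPKM at D0 and 4.17 to 5.37 FPKM at D4, where Tyrobp, P2ry12 and Fcer1g were listed at 0. The 1 microglia marker tested, Tmem119, passed the filter through the D4 libraries alone, was called higher (0.288, 0.165 and 0.411 to 4.16, 4.51 and 3.71 FPKM, log2 change 1.99 ± 0.17) and made up most of the D4 sum. Of 9 oligodendrocyte markers 1 was tested, and it fell, and their sum went from 88.9 to 135.0 FPKM at D0 to 25.5 to 33.0 FPKM at D4. Endothelial markers summed to 6.04 to 12.04 FPKM at D0 and 8.90 to 12.9 FPKM at D4, with 1 of 3 tested higher and 0 lower. The part of these other cells in the changes below was not tested.

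**Figure D2:**
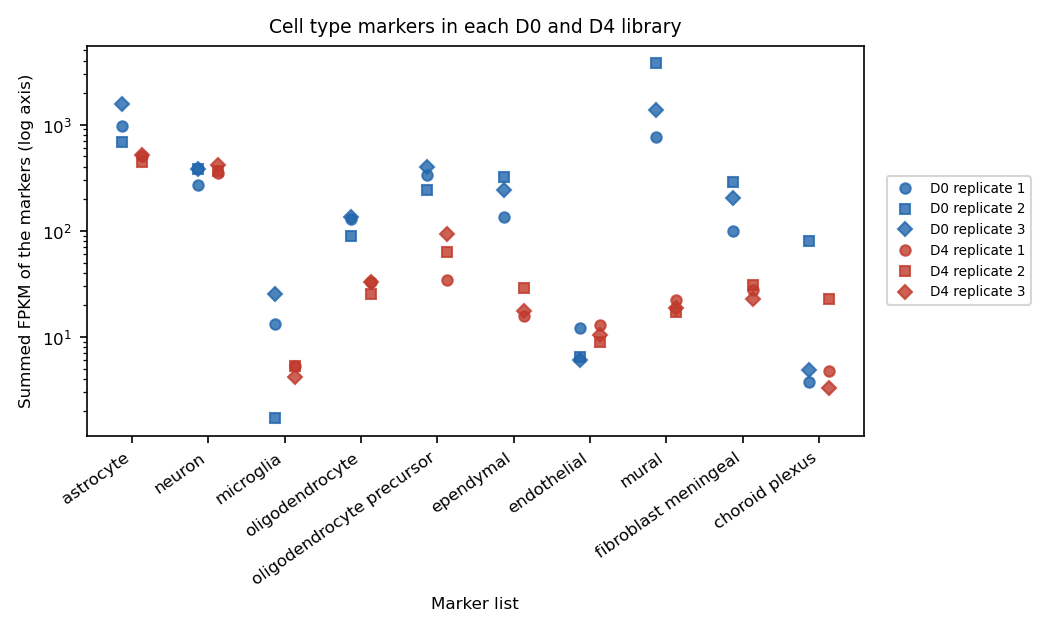
Summed FPKM of 10 lists of cell type markers (log axis) in each of the 3 D0 (blue) and 3 D4 (red) libraries, with the replicate shown by the symbol. The mural sum falls from 766 or more at D0 to 22.2 or less at D4, and the choroid plexus sum is highest in replicate 2 of both groups.

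Neuropeptide genes gave the largest single rise of the comparison, that of Calca. These genes encode precursors that are cut into secreted peptides inside dense-core granules. Of 20 listed, 17 were tested, 15 rose and 2 were not called. Since 10 of the 17, all called higher, passed the filter through the D4 libraries alone and so had to be higher there, the count is a description and is not set against the rest. Calca, which encodes calcitonin and the alpha form of calcitonin gene-related peptide (chromosome 7, start 114625981, end 114636910, GRCm38), stood at 1.52, 5.04 and 3.45 FPKM at D0 and 2419.8, 970.1 and 4983 FPKM at D4. All D4 values exceeded the D0 values by far, with replicate 2 lowest and replicate 3 highest (log2 change 9.12 ± 0.65, adjusted p = 3.8e-08). Calcb, its beta paralog, showed the same order at D4 (0.734, 0.172 and 0 to 125, 54.3 and 350.4 FPKM), and reads may be shared between the pair. Gal, the galanin precursor, was at 168, 72.9 and 163 FPKM at D4 and Npy, neuropeptide Y, at 85, 97 and 106 FPKM (3.78, 3.64 and 2.29 FPKM at D0, change 4.53). Nts, the neurotensin precursor, was listed at 0 in all D0 libraries and stood at 36.7, 14.9 and 37 FPKM at D4. Smaller rises were those of Sst, Trh, Tac1, Vip, Cck, Penk, Ucn, Cartpt, Pdyn and Adcyap1, with changes from 4.34 down to 1.30. The 2 members without a call were Nppc (0.46) and Nmb (0.17), and Crh, Grp and Pthlh did not pass the filter.

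The granules that hold these peptides followed. Of 16 genes for granule cargo and prohormone processing 14 rose and 2 were not called (median change 2.16), and 3 of the 14 passed the filter through the D4 libraries alone. The 14 are 87.5% of the 16, against 14.0% of all genes. Vgf, a granule protein and peptide precursor, was already at 56.9, 86.3 and 32.7 FPKM in astrocytes and reached 3349, 2177 and 3559 FPKM at D4 (log2 change 5.74 ± 0.47, adjusted p = 1.5e-07), beside a PN mean of 84.6 FPKM. Chga, chromogranin A, went from 3.92, 1.19 and 1.45 to 163, 145 and 127 FPKM (5.61 ± 0.30). Scg2, secretogranin II, went from 0.903, 1.30 and 6.42 to 75.8, 191 and 110.3 FPKM, with replicate 2 highest at D4, where for Calca it was lowest. The convertases that cut the precursors rose less, Pcsk2 by 2.30 and Pcsk1 by 1.55. The trimming and amidating enzymes Cpe (1074, 931 and 1126 to 821, 957 and 863 FPKM) and Pam (109, 81.6 and 111 to 87.9, 69.5 and 70.1 FPKM) were abundant in both groups and not called.

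Several of these genes carry a cAMP response element, TGACGTCA, the palindrome bound by CREB-family factors, close to their start. Promoters were taken from RefSeq (GRCm38.p6) as the 250 bases before the gene's start, for the 22862 genes with 1 listed start, 7900 of them members. The element was found (the palindrome reads the same on both strands) in 3.03% of those 7900, in 4.11% of 1071 genes that rose, 1.60% of 1123 that fell and 1.61% of all 22862. It was found in 3 of 13 neuropeptide and 3 of 12 granule genes, and in 2 of 23 immediate-early and cAMP-responsive genes. These are counts of letters, not of bound sites, and no test was made. 3 of the 6 neuropeptide and granule genes are shown, chosen because they hold the element, as 60-base windows on the gene's strand, 5′ to 3′, with the element in capitals. They are Scg2 at chr1:79440061-79440120, minus strand, Sst (somatostatin precursor) at chr16:23890859-23890918, minus strand, and Ucn (urocortin precursor) at chr5:31138906-31138965, minus strand.
Scg2: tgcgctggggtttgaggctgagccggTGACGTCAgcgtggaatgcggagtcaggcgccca
Sst: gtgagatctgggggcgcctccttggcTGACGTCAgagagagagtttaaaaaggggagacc
Ucn: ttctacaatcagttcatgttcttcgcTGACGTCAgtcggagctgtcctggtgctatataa
The element starts 68 bases before the gene's start in Scg2, 48 in Sst and 44 in Ucn. Sst was at 0.247, 0 and 0 FPKM at D0 and 16.4, 30.4 and 17.9 FPKM at D4 (log2 change 4.34 ± 0.56), and Ucn rose from a listed 0 to 1.24, 3.81 and 2.25 FPKM (log2 change 1.71 ± 0.28). Sst and Ucn passed the filter through the D4 libraries alone, so that their rise is a description. In both, as in Scg2, replicate 2 was the highest D4 library.

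**Figure D3:**
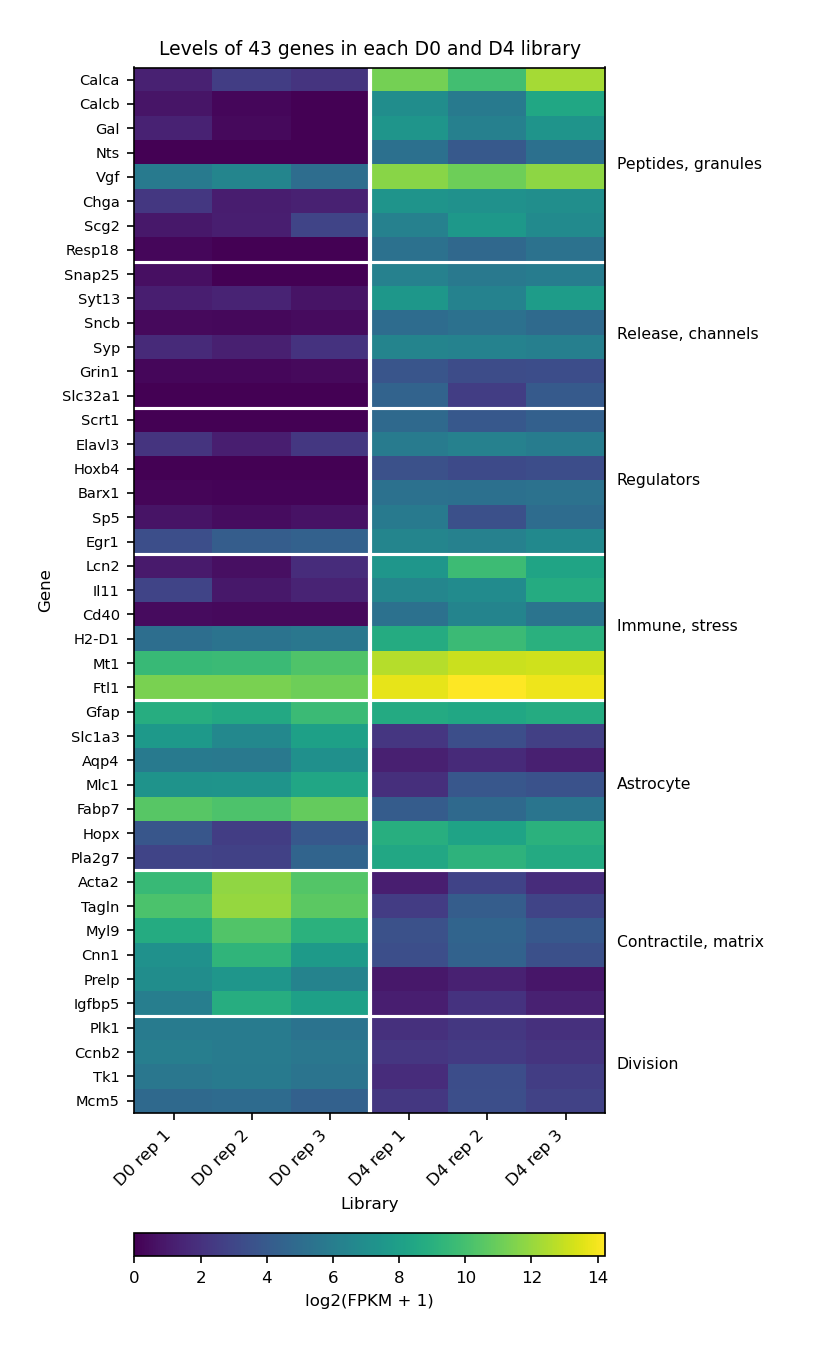
Levels of 43 genes, log2(FPKM + 1), in each of the 3 D0 and 3 D4 libraries, grouped by role. Peptide and release genes are higher at D4 and contractile, matrix and division genes lower, while the values of Gfap overlap.

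The machinery of vesicle release rose with the peptides. Of 32 presynaptic genes tested (36 listed) 22 rose, 1 fell and 9 were not called, with a median change of 2.26, and 8 of the 22 passed the filter through the D4 libraries alone. Snap25 and Sncb are among these 8, so that their rise is a description, and the 22 are not set against the rest. Snap25 (chromosome 2, start 136713439, end 136782428) stood at 0.516, 0.0324 and 0 FPKM at D0 and 75.2, 52.3 and 61.1 FPKM at D4. The D4 libraries differed little among themselves (log2 change 5.77 ± 0.27), and the PN mean was 195 FPKM. The vesicle membrane protein Syp went from 2.20, 1.41 and 3.22 to 83.6, 77.7 and 70.3 FPKM (4.61 ± 0.24), and Sncb, beta-synuclein, from 0.277, 0.258 and 0.343 to 32.1, 39.1 and 28.9 FPKM (4.72 ± 0.18). Syt13, a synaptotagmin that is not a calcium sensor, had the largest change of the list (6.11) and stood at 182, 78.4 and 232 FPKM at D4 (against a PN mean of 6.45 FPKM). The fusion clamp genes parted: Cplx1 rose by 4.46 while Cplx2 fell from 25.1, 20.3 and 19.8 to 5.14, 8.05 and 4.62 FPKM (log2 change -1.74 ± 0.23, adjusted p = 1.6e-05). Among members not called were Syt11 (-0.03), Syn2 (0.17) and Rab3b (-0.31), and Rims1, Sv2b, Pclo and Rph3a did not pass the filter.

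Some receptor and channel genes rose and a few fell. Of 37 genes for glutamate, GABA and glycine receptors and their scaffolds, 21 were tested, 9 rose, 2 fell and 10 were not called (median 0.98), and 6 of the 21 passed through the D4 libraries alone. 4 of these 6 were called higher, Grin1 and Gabra3 among them, so that their rise is a description. Grin1, the obligatory NMDA receptor subunit, went from 0.171, 0.172 and 0.305 to 12.3, 8.73 and 9.08 FPKM (log2 change 3.17 ± 0.24), while none of its Grin2 partners on the list passed the filter. 5 GABA receptor subunits were among the 9, led by Gabra3 (0.253, 0.0866 and 0.0307 to 11.1, 6.63 and 8.32 FPKM). The kainate receptor subunit Grik5 fell (39.5, 41.3 and 45 to 10.01, 7.76 and 9.46 FPKM), as did the AMPA receptor subunit Gria3 (-1.69). Of 33 voltage-gated channel genes 22 were tested, 12 rose, 1 fell and 9 were not called (median 1.11), and 7 of the 12 passed through the D4 libraries alone. Cacna1b is 1 of these 7. The 12 included the N-type calcium channel Cacna1b (0.166, 0.0256 and 0.113 to 11.9, 8.93 and 8.86 FPKM, log2 change 3.30 ± 0.26) and the pacemaker channel Hcn2 (3.01, 2.58 and 3.23 to 39, 27.2 and 34.2 FPKM). The A-type potassium channel Kcnd3 fell (-2.13). The sodium channel genes Scn1a, Scn2a1, Scn3a and Scn9a did not pass the filter, and Scn8a rose by 1.71.

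Transmitter genes read at D4 included those for GABA, glutamate, acetylcholine and dopamine. Of 5 tested genes for GABA handling 4 rose and 1 was not called, but 2 of the 4 passed the filter through the D4 libraries alone. The vesicular transporter Slc32a1 was listed at 0 at D0 and stood at 22.4, 4.92 and 15.2 FPKM at D4, and the synthesis enzyme Gad1 at 34.4, 6.57 and 14.2 FPKM (1.38, 0.951 and 2.19 FPKM at D0). Replicate 2 was lowest in both. The vesicular glutamate transporter Slc17a7 went from 0.163, 0.179 and 0 to 18.5, 12.9 and 11.5 FPKM (log2 change 3.76 ± 0.36). Slc18a3 and Slc6a3, the vesicular acetylcholine and the dopamine transporter, reached 5.49, 1.57 and 1.94 and 1.72, 1.89 and 1.46 FPKM. Of the 19 genes for other transmitters 6 were tested, 3 rose and 3 were not called. All 3 that rose passed through the D4 libraries alone, so that their rise is a description. 1 of the 3 not called was the glycine transporter Slc6a9, at -0.93, and the list had 1 fall without D0 replicate 1 or D4 replicate 1. Chat, Th, Tph2, Ddc and 9 others did not pass the filter, and Th was listed at 0 in all D4 libraries.

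The neuronal cytoskeleton changed in both directions. Of 30 tested genes 17 rose, 5 fell and 8 were not called (median 1.28), and the count of falls went to 3 without D0 replicate 3. The rises are 56.7% of the 30, against 14.0% of all genes, and the falls 16.7%, against 15%. 2 of the 17, Ina among them, passed the filter through the D4 libraries alone. Neurofilament genes rose, with Ina going from 0.393, 0.421 and 0.107 to 25.2, 26.7 and 23.1 FPKM (log2 change 4.32 ± 0.17) and Nefl from 8.21, 0.726 and 5.76 to 82, 82.6 and 106 FPKM (4.25 ± 0.50). Crmp1 and Stmn4, regulators of microtubules in growth cones, rose by 4.50 and 4.44. The related Dpysl3 and Dpysl2 fell instead (94.2, 54.5 and 98.4 to 25.6, 16.9 and 22.9 FPKM and 18.6, 30.03 and 27 to 5.19, 8.87 and 6.50 FPKM). Tubb2a and Tubb2b also fell (-1.60 and -1.02), a near-identical pair whose reads may be shared. Map2 (0.28) and Gap43 (-0.24) were not called.

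Transcription factors of neurons rose in 19 of 33 tested genes, fell in 5 and were not called in 9 (median 1.09), but 15 of the 33 passed through the D4 libraries alone and 21 of the 54 listed did not pass. The 15 include 13 of the 19 that rose, Scrt1 and Pou4f1 among them. 1 of the 5 that fell passed through the D0 libraries alone. Scrt1, a zinc-finger repressor of the neuronal lineage, went from 0, 0.0320 and 0 to 28.4, 14 and 19.9 FPKM (log2 change 4.37 ± 0.24). Sox11 rose from 8.44, 4.66 and 6.38 to 27.4, 36 and 33.1 FPKM, and the sensory neuron factor Pou4f1 from 0.0248, 0.0170 and 0.0301 to 3.32, 3.18 and 4.23 FPKM. Neurog2 and Neurod1, proneural bHLH factors, rose by 2.02 and 1.90. Atoh8, a bHLH gene expressed beyond neurons, fell most (124, 118 and 123 to 1.51, 3.32 and 3.05 FPKM, log2 change -5.12 ± 0.31, adjusted p = 6.6e-09). The forebrain factors Lhx2 (-1.65) and Fezf2 (-1.64) fell too, with no overlap between groups in either.

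Homeobox genes of the posterior body axis were read at D4 and were near 0 at D0. Of the 39 Hox genes 13 passed the filter, all through the D4 libraries alone, so that their rise is a description. Hoxb4 was at 0.0379, 0 and 0 FPKM at D0 and 10.6, 8.14 and 9.10 FPKM at D4 (log2 change 3.34 ± 0.17), Hoxd8 at 8.99, 6.52 and 8.72 FPKM and Hoxb13 at 5.64, 5.96 and 5.49 FPKM. The 13 came from all 4 clusters (Hoxa10; Hoxb4, Hoxb7, Hoxb9 and Hoxb13; Hoxc4, Hoxc6, Hoxc10 and Hoxc13; Hoxd4, Hoxd8, Hoxd9 and Hoxd13). Hoxb4 was listed at 0 in all PN libraries and Hoxb13 had a PN mean of 0.269 FPKM.

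Regulators of RNA processing and of the REST complex changed in both directions. Of 28 tested genes of this list 10 rose (35.7%, against 14.0% of all genes) and 6 fell (21.4%, against 15%). The other 12 were not called (median change of the 28, 0.32). 4 of the 10 passed the filter through the D4 libraries alone. The neuronal RNA-binding gene Elavl3 went from 3.37, 1.27 and 3.98 to 58.3, 75.1 and 60.6 FPKM (log2 change 4.15 ± 0.22, adjusted p = 3.2e-09), Celf3 and Celf6 rose by 3.28 and 2.76, and the microexon splicing factors Srrm3 and Srrm4 by 2.49 and 1.55. The progenitor translation regulator Msi1 fell (33.2, 31.2 and 46.7 to 10.9, 5.98 and 11.1 FPKM), as did the glial splicing factor Qk (-1.11). Rest, the repressor of neuronal genes, did not differ beyond its spread (11.7, 6.81 and 9.41 to 11.4, 9.61 and 9.09 FPKM, log2 change 0.12 ± 0.28, adjusted p = 0.74). The small phosphatases that act with it, Ctdsp1 and Ctdsp2, fell (62.2, 61.8 and 70.5 to 14.1, 11.9 and 12.1 FPKM for Ctdsp2), while its corepressor Rcor2 rose (2.60). Ptbp1, which blocks neuronal exons, was at 124, 128 and 123 and 67.9, 84.5 and 85 FPKM and was not called (-0.66). Its neural paralog Ptbp2 fell (17, 10.01 and 15.9 to 6.73, 5.10 and 3.87 FPKM, -1.29).

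Targets of Wnt signalling rose in 12 of 19 tested genes (63.2%, against 14.0% of all genes). 4 fell (21.1%, against 15%) and 3 were not called (median change of the 19, 1.58). 3 of the 12 passed the filter through the D4 libraries alone, Sp5 and Lef1 among them, so that their rise is a description. Among effector and feedback genes of Wnt signalling, Sp5 went from 0.665, 0.393 and 0.639 to 55.1, 10.1 and 32.1 FPKM (log2 change 4.14 ± 0.44), Lef1 from 0.469, 0.327 and 0.318 to 14.7, 5.80 and 14.5 FPKM, Nkd1 from 1.64, 2.36 and 4.94 to 30.6, 15.7 and 27.9 FPKM and Axin2 from 12.3, 15.7 and 11.7 to 74.5, 41.5 and 71.8 FPKM (2.12 ± 0.41). D4 replicate 2 was lowest in each of these 4. The growth genes Ccnd1 (1546, 1304 and 1194 to 388, 447 and 501 FPKM) and Myc (19.97, 9.84 and 13 to 2.85, 5.23 and 5.22 FPKM), also counted as Wnt targets, fell, as did Tcf7, whose call was lost without D4 replicate 2.

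Immediate-early and cAMP-responsive genes rose in 13 of 37 (35.1%, against 14.0% of all genes) and fell in 3 (8.11%, against 15%). The other 21 were not called (median change of the 37, 0.71). 3 of the 13 passed the filter through the D4 libraries alone and 1 of the 3 that fell through the D0 libraries alone. Egr1 went from 9.65, 17.1 and 20.5 to 87.6, 74.4 and 108 FPKM (log2 change 2.48 ± 0.36, adjusted p = 3.9e-05), Egr2, Egr3 and Egr4 rose with it, and Atf3, a stress-induced factor, went from 3.61, 6.00 and 7.22 to 26.3, 64.3 and 39.99 FPKM. Fos (0.71), Nr4a1 (-0.09) and Bdnf (-0.75) were not called. The 3 that fell (Fosl1, Per2 and Npas4) lost their calls without D4 replicate 2. Fosl1 also lost it without D0 replicate 1, and Npas4 without D0 replicate 2, D0 replicate 3, D4 replicate 1 or D4 replicate 3.

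Feedback genes of BMP and TGF-beta signalling went down in 11 of 22, up in 5 and were not called in 6 (median -0.92). The inhibitors of differentiation Id3 and Id4 fell (523, 702 and 768 to 171, 153 and 206 FPKM and 59.5, 75.8 and 129 to 11.3, 17.8 and 14.4 FPKM), with Smad6 (-2.43) and Bambi (10.2, 12.5 and 15.8 to 1.46, 2.58 and 3.54 FPKM). The secreted antagonist Nog fell (22.2, 69.7 and 64.6 to 3.52, 4.41 and 4.51 FPKM, -3.21) while Chrd, another antagonist, rose (1.80, 2.82 and 0.870 to 10.3, 10.1 and 7.50 FPKM) and so did the ligand Bmp7 (2.26). In the Notch pathway 4 of 13 genes fell (Lfng, Hey1, Notch1 and Maml2), the ligand Jag2 rose (1.11, 0.808 and 0.702 to 13.9, 8.44 and 8.63 FPKM) and 8 were not called, among them Hes1 (-0.79). Of 10 genes of the insulin-like growth factor system 6 fell, 2 rose and 2 were not called. Igfbp5 had the largest fall (67.7, 460.2 and 269 to 1.31, 3.25 and 1.49 FPKM, log2 change -6.14 ± 0.53, adjusted p = 2.3e-07) and Igfbp2, the most abundant transcript of D0 replicate 2, went from 5261, 13172 and 5540.4 to 717, 2012 and 1356 FPKM. Igf2 rose (0.589, 13 and 0.777 to 42.9, 28.9 and 28.4 FPKM, log2 change 3.31 ± 0.65, adjusted p = 5.3e-04), with D0 replicate 2 well above the other D0 libraries. Its receptor Igf2r rose too, a call lost without D4 replicate 1.

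The largest single falls were those of contractile genes. Of 27 tested targets of the actin and serum response factor (SRF) pathway 24 fell (88.9%, against 15% of all genes). 2 of the 24 passed the filter through the D0 libraries alone. Of the 27, 0 rose and 3 were not called (median -1.90). By limma, Myh11, the only one with a positive change (0.52), had an adjusted p of 0.067. Acta2, smooth muscle actin (chromosome 19, start 34240336, end 34255585), stood at 749.8, 3761 and 1339 FPKM at D0, where replicate 2 was highest, and at 1.27, 6.27 and 2.49 FPKM at D4 (log2 change -8.66 ± 0.95, adjusted p = 2.5e-06). Tagln, an actin-binding protein, showed the same order of libraries (1154, 4024 and 1559.97 to 4.77, 17.1 and 6.48 FPKM, -7.71 ± 0.94). Myl9, the regulatory myosin light chain, went from 425, 1307 and 539.8 to 10.7, 23.4 and 14 FPKM, and Vcl, the focal adhesion protein vinculin, from 97.9, 113 and 107 to 20.6, 19.6 and 21.5 FPKM (log2 change -2.31 ± 0.20, adjusted p = 2.5e-07). Srf itself fell (-1.33), as did the cytoplasmic actin Actb (-1.81). Actg1 (-0.96) and Filip1l (-0.40) were not called. Actin genes are close in sequence, so reads may be shared among them.

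The CArG box, the 10-base element that SRF binds, was found on either strand in the 250 bases before the start of 6 of 21 genes of this list, in 1.11% of the 7900 members with 1 listed start, in 1.87% of the genes that fell and 0.747% of those that rose. The list was made up of known SRF targets, so the first count is partly fixed by the choice of genes. 3 that hold the box are shown, as 60-base windows on the gene's strand, 5′ to 3′, with the box in capitals (RefSeq, GRCm38.p6, plus strand): Myl9 at chr2:156775277-156775336, Cnn2 (calponin 2) at chr10:79988518-79988577 and Vcl at chr14:20929148-20929207.
Myl9: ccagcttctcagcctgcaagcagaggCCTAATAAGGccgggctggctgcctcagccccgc
Cnn2: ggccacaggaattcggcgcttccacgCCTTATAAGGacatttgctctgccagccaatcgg
Vcl: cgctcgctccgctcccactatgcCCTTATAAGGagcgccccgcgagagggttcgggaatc
Cnn2 went from 483, 940.3 and 556 to 49.2, 86.7 and 66.7 FPKM (log2 change -3.24 ± 0.58, adjusted p = 2.4e-04).

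Mechanosensing and matrix genes followed the same direction. Of 20 tested YAP and TEAD pathway genes (median -1.51) 0 rose, 5 were not called and 15 fell (75.0%, against 15% of all genes). The largest was the secreted Cyr61 (500.3, 837 and 665 to 40.7, 80.5 and 69.3 FPKM, log2 change -3.40 ± 0.91, adjusted p = 0.005), and the coactivators Yap1 and Wwtr1 fell themselves (-1.22 and -1.21). Of the 5 without a call, Tead2 was the only one with a positive change (0.24, limma adjusted p = 0.56). Among 41 tested matrix genes 27 fell (65.9%, against 15% of all genes), 5 rose (12.2%, against 14.0%) and 9 were not called (median -1.95). 3 of the 27 passed the filter through the D0 libraries alone and 1 of the 5 through the D4 libraries alone. The proteoglycan Prelp fell from 122, 178 and 82.2 to 0.878, 1.42 and 0.808 FPKM (log2 change -5.92 ± 0.22, adjusted p = 1.4e-10), with D4 values close together. Collagen genes fell across types, from fibrillar Col1a2 (31.1, 75 and 65.5 to 1.10, 2.74 and 1.81 FPKM) and Col5a2 to basement membrane Col4a1 (53.4, 97.1 and 50.5 to 7.32, 7.11 and 4.77 FPKM). The fibroblast marker Col3a1 did not pass the filter. The 5 that rose (Fbln2, Acan, Thbs2, Lamb1 and Fbln1) became 2 without D0 replicate 2 and 3 without D4 replicate 1.

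Astrocyte genes were lost unevenly. Of 36 tested identity genes 21 fell (58.3%, against 15% of all genes), 5 rose (13.9%, against 14.0%) and 10 were not called (median -1.30). 4 of the 21 passed the filter through the D0 libraries alone and 1 of the 5 through the D4 libraries alone. The water channel gene Aqp4 went from 56.4, 52.8 and 140.3 to 1.41, 2.21 and 1.36 FPKM (log2 change -4.85 ± 0.38, adjusted p = 8.6e-08) and the membrane protein Mlc1 from 157, 164 and 334 to 2.71, 13.5 and 11.1 FPKM. The factors Sox9 (27.2, 25.5 and 42.7 to 10.6, 11.5 and 15.2 FPKM), Nfia (-1.14) and Nfix (-2.58) fell too. Glul, the glutamine synthetase gene (-0.02), Clu (0.41) and Gfap (-0.41) were not called, nor was the gap junction gene Gja1 (96.9, 69.7 and 131 to 49.1, 48.7 and 48.1 FPKM, -0.97). Slc1a2 lost its call without D0 replicate 3. The lipase gene Pla2g7 rose instead (6.69, 5.82 and 22.6 to 369, 586 and 411 FPKM, log2 change 5.38 ± 0.47, adjusted p = 2.6e-07), with Cbs, Slc7a10, Dio2 and Mfge8.

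Progenitor genes fell in 14 of 30 (46.7%, against 15% of all genes) and rose in 2 (6.67%, against 14.0%). The other 14 were not called, and the median change of the 30 was -0.91. The lipid carrier Fabp7 of radial glia went from 1454, 1198 and 1844 to 16.9, 28.5 and 44.7 FPKM (log2 change -5.67 ± 0.54, adjusted p = 5.8e-07), and Pax6, Olig1 and Nes fell (-2.14, -2.83 and -1.94). Hopx, a homeodomain gene, rose (12.8, 4.88 and 14.2 to 476, 305 and 549 FPKM, log2 change 5.33 ± 0.46, adjusted p = 2.1e-07), as did Zic1 (1.46). Sox2 (-0.83) was not called.

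Injury-response genes split. Of 34 tested reactive genes 14 fell (41.2%, against 15% of all genes), 7 rose (20.6%, against 14.0%) and 13 were not called (median -0.61). 4 of the 14 passed the filter through the D0 libraries alone and 1 of the 7 through the D4 libraries alone. Lcn2, a secreted iron-siderophore carrier, went from 1.01, 0.510 and 2.54 to 173, 864 and 316 FPKM, with replicate 2 highest at D4 (log2 change 7.36 ± 0.73, adjusted p = 8.7e-07). Timp1, C3, Osmr, Srgn, Fkbp5 and H2-D1 rose as well. Emp1 (355, 249 and 205 to 9.22, 16.3 and 11.9 FPKM), Cp (-4.56), Ptx3 (-3.77) and Serpina3n (-2.05) fell, and Cd44 (-0.54) was not called.

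Cytokine and NF-kB genes were called in 14 of 39, 7 each way (median 0.36). That is 17.9% each way, against 14.0% of all genes higher and 15% lower. 2 of the 7 that rose, Cd40 among them, passed the filter through the D4 libraries alone. Of the 7 that fell 1, Cntf, passed through the D0 libraries alone. Il11 went from 6.67, 0.893 and 1.62 to 89.4, 115 and 420.3 FPKM, with replicate 3 highest at D4 (log2 change 5.61 ± 0.70, adjusted p = 8.3e-06), and the receptor gene Cd40 from 0.319, 0.270 and 0.301 to 37.7, 83.1 and 44 FPKM (log2 change 5.35 ± 0.47). Cxcl1 rose from 1.74, 0.614 and 0.779 to 12.2, 12 and 13.4 FPKM. The ciliary neurotrophic factor gene Cntf fell (25.9, 80.9 and 53.8 to 0.512, 0.909 and 0.626 FPKM, -4.88 ± 0.37), with Csf1 (-3.07) and Nfkb1 (-1.79). Among 24 tested interferon and MHC class I genes 7 rose, 6 fell and 11 were not called (median -0.35). Those that rose were Psmb9, Oas1a and 5 class I genes or partners, H2-D1 (34.8, 41.6 and 49.5 to 432, 836 and 519.7 FPKM, 3.75), H2-K1 (2.54), H2-Q4, B2m and Nlrc5, the class I transactivator. The interferon-induced Ifit3 (6.02, 14.9 and 21.8 to 0.140, 0.0924 and 0.283 FPKM) and Ifit2 and the peptide loading gene Tapbp fell. Class I genes are close in sequence and their split is uncertain.

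Cell division genes were down throughout mitosis and in part of replication. All 30 tested genes of G2 and mitosis fell, with changes from -1.40 (Ttk) to -3.65 (Plk1) and a median of -2.66, against 15% of all genes called lower. The mitotic kinase Plk1 went from 59, 58.2 and 41.1 to 2.89, 3.97 and 2.91 FPKM (log2 change -3.65 ± 0.22, adjusted p = 6.6e-09), and Ccnb2, a mitotic cyclin, from 67.7, 59.7 and 48.5 to 3.79, 4.27 and 3.36 FPKM. Of 32 genes of G1-S and DNA replication 20 fell (62.5%), 0 rose and 12 were not called (median -1.11). 1 of the 20 passed the filter through the D0 libraries alone. Tk1, thymidine kinase, fell most (49.5, 57.7 and 44 to 2.54, 9.30 and 5.03 FPKM, -3.08 ± 0.31), and Mcm5 of the replicative helicase went from 27.9, 30.9 and 19.9 to 3.88, 9.65 and 6.06 FPKM. Replicate 2 was the highest D4 library for each of these 4. The positive changes in the list were those of Pcna (0.27), E2f2 (0.11) and E2f1 (0.03), with limma adjusted p of 0.61, 0.6 and 0.9. The CCAAT box was found in 18 of 23 mitosis promoters with 1 listed start, against 37.6% of the 7900, and the CHR element TTTGAA in 8 of 23, against 9.65% (either strand). The list was made up of known mitosis genes, so its counts are partly fixed by the choice of genes. Among all genes that fell the shares were 39.0% for CCAAT and 12.4% for CHR, and no test was made.

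Brakes of the cell cycle and p53 targets were called about as often as all genes. Of 30 genes 4 rose (13.3%, against 14.0% of all genes), 5 fell (16.7%, against 15%) and 21 were not called (median -0.31), and the falls were 3 without D0 replicate 2. Cdkn2a, which encodes p16 and p19Arf, rose from 51.4, 40.2 and 37.1 to 171, 154 and 156 FPKM (log2 change 1.89 ± 0.30, adjusted p = 9.3e-05), with Plk2 (36.7, 35.2 and 36.5 to 337, 288 and 318 FPKM), Gadd45a and Pmaip1. Cdkn1a, p21, was at 255, 340.2 and 231 and 228, 192 and 232 FPKM and not called, and Cdkn2c fell (45.1, 47.2 and 38.7 to 6.56, 8.67 and 7.92 FPKM).

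Chromatin regulators were called in 10 of 32, near the 29.0% of all genes. Of these 4 rose (12.5% of the 32, against 14.0% of all genes) and 6 fell (18.8%, against 15%), with a median change of -0.10 over the 32. 2 of the 4 that rose, Actl6b among them, passed the filter through the D4 libraries alone. Of the 6 that fell 1, Hdac9, passed through the D0 libraries alone. Actl6b, the neuronal subunit of the BAF remodelling complex, went from 0.202, 0 and 0 to 12.3, 19.2 and 14.6 FPKM (log2 change 3.92 ± 0.18). Its progenitor counterpart Actl6a was not called (-0.63). Brd2, a BET bromodomain gene, and Hexim1, an inhibitor of transcription elongation, lay at the minimum change (1.01 and 1.01), without overlap between groups. Brd2 lost its call without either D0 replicate 1, D0 replicate 3, D4 replicate 1 or D4 replicate 3, Hexim1 without either D0 replicate 1, D0 replicate 2 or D4 replicate 2, and both under scaling to an equal total. Without D0 replicate 1 the 4 became 2. Hdac9 and Hdac5, class IIa deacetylases, fell (9.96, 9.96 and 11.4 to 0.944, 0.977 and 0.626 FPKM and 28.8, 37.1 and 30.3 to 8.19, 8.12 and 7.95 FPKM). Of 16 histone genes 7 rose (43.75%, against 14.0% of all genes), 1 fell (6.25%, against 15%) and 8 were not called. H1f0, the linker histone of resting cells, went from 50.3, 49.1 and 44.9 to 244, 217 and 232 FPKM (log2 change 2.24 ± 0.14, adjusted p = 1.1e-08), and Hist1h2bc from 62.9, 102 and 74 to 415, 534 and 559.6 FPKM. Core histone genes such as Hist1h4h (4.30 ± 0.83) have near-identical copies. The 1 that fell, H1fx, lost its call without D0 replicate 2, and 2 or 3 fell without D0 replicate 3, D4 replicate 2 or D4 replicate 3.

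**Figure D4:**
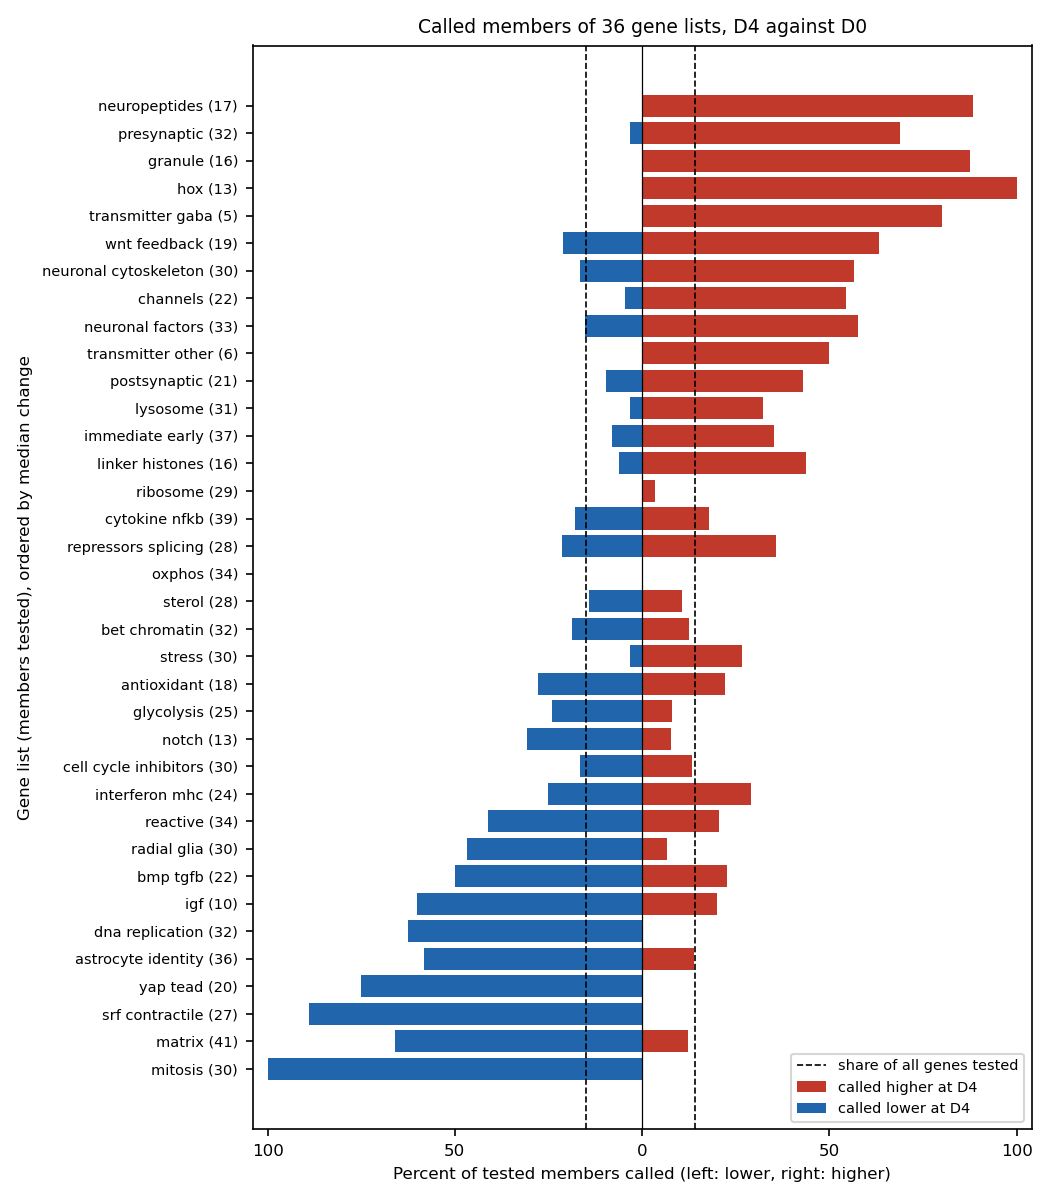
Percent of tested members called higher (red) or lower (blue) at D4 in 36 gene lists, ordered by their median change, with dashed lines at the 14.0% and 15% of all genes tested. The mitosis, matrix and contractile lists stand at the lower end and the respiratory chain list has none called; in the lists at the upper end, all 13 Hox, 10 of 17 neuropeptide and 8 of 32 presynaptic genes passed the filter through the D4 libraries alone, so their bars are not to be read against the lines.

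Respiratory chain and ribosomal protein genes gave few calls. None of the 34 respiratory chain genes was called by limma, 4 of them had an adjusted p below 0.05 and 5 an unadjusted p below 0.05, with changes under 1, and the changes ran from -0.56 to 0.60 (median -0.02). Of 29 ribosomal protein genes 28 had a positive change (median 0.55), but only Rps2 reached the minimum (1957, 2429 and 1338 to 3527, 3503 and 4573 FPKM, 1.05). The count was 0 without D0 replicate 3 or D4 replicate 3, 0 under quantile normalization, and 2 or 3 without each of the other 4 libraries. In glycolysis 6 of 25 genes fell (24.0%, against 15% of all genes) and 2 rose (8.0%, against 14.0%). 1 of the 6 passed the filter through the D0 libraries alone and 1 of the 2 through the D4 libraries alone. The 2 were Eno2, the neuronal enolase (21, 16.8 and 16.3 to 186, 137 and 179 FPKM, 3.14), and the lactate exporter Slc16a3 (0.865, 0.339 and 0.817 to 32.2, 25.9 and 31.3 FPKM). Sterol and fatty acid genes were called in 7 of 28, 3 higher (10.7%, against 14.0% of all genes) and 4 lower (14.3%, against 15%). The 3 became 1 without D4 replicate 3. Hmgcs1 fell (49.2, 53.1 and 103 to 19.1, 18.2 and 19.5 FPKM) and Dhcr7 rose (1.67).

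Stress genes rose in 8 of 30 (26.7%, against 14.0% of all genes) and fell in 1 (Phgdh, 3.33%, against 15%). The other 21 were not called (median change of the 30, -0.10). The stress factor Ddit3 went from 30.2, 23.8 and 18 to 105, 176 and 124 FPKM (log2 change 2.44 ± 0.28, adjusted p = 4.1e-06) and Ddit4 rose by 2.50, while the chaperone Hspa5 (-0.14) and Atf4 (0.17) were not called. The count of falls was 2 without D0 replicate 3 or D4 replicate 2. Metallothioneins parted: Mt1 rose from 763, 837 and 1239 to 6427, 8757 and 9490.1 FPKM (log2 change 3.13 ± 0.38, adjusted p = 7.3e-06) and Mt2 by 2.59, while the brain form Mt3 fell (1583, 2444 and 2324 to 429.7, 525 and 617 FPKM). Of 18 tested metallothionein and Nrf2 target genes 4 rose (22.2%, against 14.0% of all genes), 5 fell (27.8%, against 15%) and 9 were not called. The Nrf2 targets Srxn1 and Slc7a11 rose (2.88 and 3.55), Nqo1 and Gclm fell (-2.45 and -1.45), and Hmox1 was not called (-0.08). Lysosome genes rose in 10 of 31 (32.3%, against 14.0% of all genes) and fell in 1 (3.23%, against 15%). The other 20 were not called (median change of the 31, 0.76). The fall, of Ctsf, was lost without D0 replicate 3 or D4 replicate 3. Cd68, a lysosomal membrane protein used as a macrophage marker, went from 17.5, 21.6 and 13.4 to 218, 426 and 245 FPKM (log2 change 3.97 ± 0.51, adjusted p = 1.1e-05). Of 12 microglia markers 1 was tested and called higher, Tmem119, and the part of such cells was not tested. The calcium channel Mcoln1 and the cathepsin Ctsb rose by 2.01 and 1.73.

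The most abundant transcripts changed places. Thymosin Tmsb4x led D0 replicates 1 and 3 and was not called (7397, 11906 and 6729 to 3808, 8734 and 8932 FPKM, -0.33). Ferritin light chain Ftl1 led all 3 D4 libraries, at 13268, 19021 and 14567 FPKM against 2580.1, 2648 and 2149.5 FPKM at D0 (log2 change 2.66 ± 0.26, adjusted p = 6.7e-07), though ferritin has processed copies in the genome that can share reads. Vim, the intermediate filament vimentin, fell from 7012, 5953 and 6053 to 1813, 1742 and 2108 FPKM and the phosphoprotein gene Pea15a, high in astrocytes, from 2769, 3830.1 and 4102 to 251, 306 and 299 FPKM (log2 change -3.62 ± 0.22, adjusted p = 6.6e-09). The 10 most abundant genes took 6.93 to 9.37% of the FPKM total at D0 and 9.40 to 11.96% at D4.

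Levels at D4 can be set beside those of the other groups, for which no overlap is given because the comparisons share libraries. Calca had a mean of 2791 FPKM at D4, 1054 at D8 and 166 at D16, and Lcn2 of 451, 97.6 and 12.8 FPKM. Snap25 stood at 62.9, 134 and 172 FPKM and Scrt1 at 20.7, 66.7 and 80.8 FPKM, so that D4 had the lowest of the 3 induced means for both. Slc1a3 and Acta2 were already at 6.33 and 3.34 FPKM at D4, whereas Gfap was at 398 FPKM at D4 and 37.1 at D8.

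**Figure D5:**
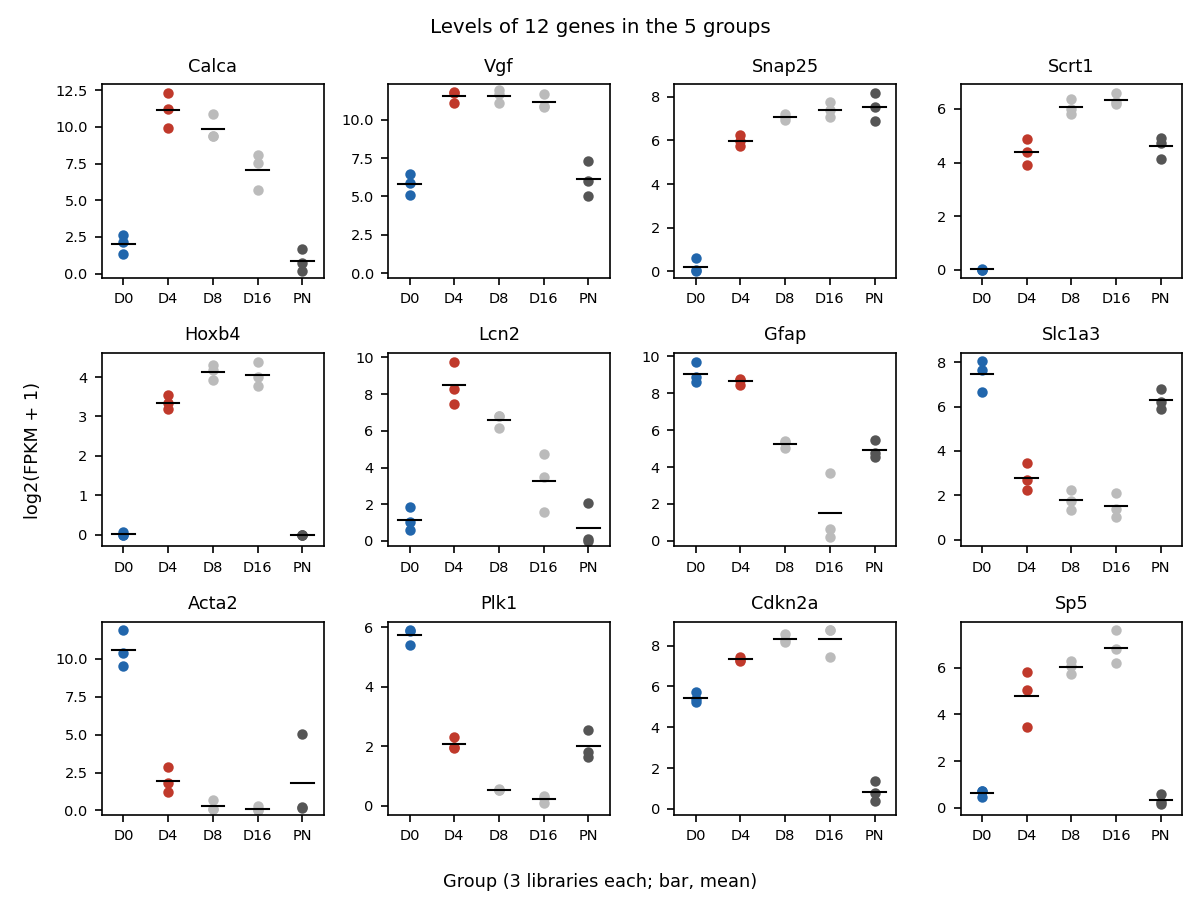
Log2(FPKM + 1) of 12 genes in the 3 libraries of each of 5 groups, with the group mean as a bar. Calca and Lcn2 have their highest mean at D4, Snap25 and Sp5 their lowest induced mean, and the Gfap values of D0 and D4 overlap.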

How the data were processed

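RNA was measured in 15 libraries of mouse brain cells, 3 in each of 5 groups. The authors deposited 1 table of FPKM values per gene and library. The build is mm10 per the submitters' processing notes, and the aligner, quantifier and annotation are not given in the sources used here. FPKM is scaled to each library's total, so a change in the most abundant genes moves the rest. No counts were used, and only relative depth was estimated.

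From the deposited FPKM, log2(FPKM + 1) was fitted with limma 3.58.1 in R 4.3.3, with 1 mean per group over all 15 libraries (10 residual degrees of freedom) and a variance trend. P-values of D4 against D0 were adjusted by Benjamini-Hochberg over 13115 genes. For a single gene, an exact two-sided permutation test of 3 against 3 libraries cannot go below p = 0.1. The members and the 36 gene lists were chosen with earlier results of these data known. Named genes are the 10 called genes with the largest change each way without overlap and with a higher group mean of at least 5 FPKM, up to 4 called members each way per list without overlap, uncalled or opposite members of lists with fewer than 3 of them, the cell type markers, the 10 most abundant genes of each group, and up to 10 called genes each way, outside the lists, with the smallest spread relative to the change. Other genes named were picked from the lists after their values were seen. The fit was tested on simulated data. Alternatives were other pseudocounts, filters, scalings and fits, and leaving out each library. Some genes are not reported here.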

Additional observations from a re-analysis of the deposited data

How the results depend on the processing

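The count of 3805 calls moved most with the minimum on the change. Without a minimum on the change 7295 genes were called, 3450 higher and 3845 lower, and with a filter of 5 FPKM 1153 genes were called higher. Leaving out each library in turn gave 3690 to 3869 calls, 1699 to 1898 higher and 1948 to 2000 lower, and 8893 to 9370 genes without overlap, a count that rises by construction with fewer libraries. Same-numbered replicates of D0 and D4 had correlated deviations of 0.21, 0.181 and -0.071, and unlike-numbered ones of -0.26 to 0.093. Replicates 1 and 2 thus gave the highest values of all pairs, and replicate 3 did not. The labels do not say that the numbers mark pairs, and they were not taken as pairs. With the replicate number as a block 3814 genes were called, 1840 higher and 1974 lower. A few genes, given under the other observations, followed the number across days. Whether same-numbered libraries share a source was not tested. Of 259 named genes that were called, 236 kept their call under each of the 17 alternatives in which they were tested and 23 lost it in at least 1, and none reversed. Low genes are limited by depth that differs between libraries, and libraries of a group may not be independent cultures.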

Other observations

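Outside the gene lists, 1 of the most precise rises was that of Barx1, a homeobox gene of craniofacial and stomach development, from 0.157, 0.109 and 0.0972 to 39.1, 37.7 and 39.7 FPKM (log2 change 5.15 ± 0.13). The most precise genes were picked for a small spread relative to their change, so the closeness of their libraries is part of the selection. Barx1, like Hmx1, Chrnb2 and Hpca below, passed the filter through the D4 libraries alone, so that the rise of each is a description. Hmx1, a homeobox gene of sensory structures, went from 0, 0 and 0 to 7.69, 7.69 and 7.09 FPKM (3.08 ± 0.22). The nicotinic receptor subunit Chrnb2 rose from 0.480, 0.398 and 0.603 to 15.2, 14.6 and 15 FPKM and the neuronal calcium sensor Hpca from 0, 0 and 0 to 20.6, 16.8 and 19.9 FPKM. H2-DMa, an MHC class II chaperone subunit, rose by 2.33. Among the most precise falls were those of the focal adhesion gene Tns3 (63.9, 64.3 and 71.6 to 10.9, 10.2 and 11.1 FPKM, log2 change -2.53 ± 0.26, adjusted p = 1.2e-06) and the Polycomb gene Phc1 (-1.36).

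A few genes followed the replicate number across groups, and they were chosen after their values were seen. Ttr, the transthyretin gene of choroid plexus, was at 0, 64.6 and 0 FPKM at D0 and 0, 19.6 and 0 FPKM at D4, with replicate 2 the highest in each. Eif2s3y stood at 24, 12.9 and 29.8 FPKM at D0 and 31, 14.7 and 29.99 FPKM at D4, with replicate 2 the lowest in each. For Eif2s3y replicate 2 was also lowest at D8 (25.2, 14.6 and 26.4 FPKM) and D16 (27.8, 14.5 and 31.6 FPKM), but not in PN (11.2, 35.8 and 26.6 FPKM). H2-T22, whose near-identical paralogs make its value uncertain, was at 2.92, 5.8e-05 and 0.0001 FPKM at D0 and 7.74, 5e-05 and 0.00012 FPKM at D4. For H2-T22 replicate 1 was also highest at D8 (9.41, 3.5e-05 and 0.00012 FPKM) and D16 (9.86, 5.1e-05 and 0.00011 FPKM), but not in PN (4.4e-05, 0.354 and 4.9e-05 FPKM).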
